A study of Mus musculus with 16 samples.

Results

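The cells described here are the tumor cells of 2208L mammary tumors, chosen by the transcripts they carried in single-cell RNA sequencing libraries. Cells were kept when they had more than 200 and fewer than 6000 detected genes and at most 10% of their transcripts from the mitochondrial genome. Transcripts were counted as unique molecular identifiers (UMIs), each standing for 1 captured RNA molecule. A kept cell was taken as a tumor cell when it had at least 5 UMIs of the epithelial genes Krt8, Krt18 and Epcam in sum, at most 2 UMIs of the leukocyte genes Ptprc and Csf1r in sum, and fewer than 20 UMIs of the basal keratin gene Krt14. The members were thus chosen by their measured UMIs of these 6 genes, whose levels below are a description only. This rule found 2585 tumor cells among 13830 kept cells of 4 tumor libraries, in a series of 16 libraries with 77636 cell barcodes.

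2208L is a transplantable mouse mammary tumor that lacks Trp53, and it was grown from tumor pieces in the mammary fat pads of young adult WT female BALB/c mice, whose own cells keep Trp53. Tumor-bearing mice received the vehicle methylcellulose, IACS-70654 by mouth, an anti-PD-1 antibody, or IACS-70654 and anti-PD-1 together (the combination), over 7 days. Whether the mice without anti-PD-1 received an isotype antibody is not given for these libraries in the sources used here. Each treatment had 1 library, made from live-sorted cells that were pooled from 3 mice and labeled with a sample tag. With 1 library each, no test between treatments was run and the spread between mice was not measured. The vehicle, IACS-70654, anti-PD-1 and combination libraries gave 356, 691, 461 and 1077 tumor cells.

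IACS-70654 inhibits the bromodomains of CBP and P300, a pair of related histone acetyltransferases that serve as coactivators at enhancers and promoters. Tumor cells show peptides to cytotoxic T cells on MHC class I molecules, and interferons raise the transcription of those molecules, of the proteasome subunits and transporters that supply the peptides, and of a large set of antiviral genes. Luminal mammary epithelial cells carry the keratins Krt8 and Krt18, while Krt14 and Krt5 mark the basal, myoepithelial layer. PD-1 is an inhibitory receptor of T cells, and the antibody acts on those cells rather than on tumor cells.

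The tumor cells of the 4 libraries were sampled to a like depth. Their median UMI count per cell lay between 13941 and 16088 and their median number of detected genes between 3874 and 4098, and the summed UMIs of all tumor cells were 5679883 with vehicle, 10524522 with IACS-70654, 7747578 with anti-PD-1 and 16175930 with the combination. No cell barcode was shared between the 4 libraries. Levels below are counts per 1000000 UMIs (CPM) in the sum over a library's tumor cells, and differences are log2 ratios of CPM with exact 95% intervals that cover counting error only. A gene was called higher or lower past a log2 ratio of 0.5, over 6103 genes whose mean CPM over the 4 libraries was at least 20. Tumor cells made up 18.0% of the kept cells with vehicle (95% exact binomial interval 16.4 to 19.8), 14.6% with IACS-70654 (13.6 to 15.6), 22.5% with anti-PD-1 (20.7 to 24.3) and 21.3% with the combination (20.1 to 22.4).

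The rule itself set the epithelial label, and genes outside the rule did not show it for every cell. The 3 epithelial genes together had a median of 71 UMIs per tumor cell with vehicle, 60 with IACS-70654, 75 with anti-PD-1 and 64 with the combination. Just inside the threshold, 1, 3, 1 and 3 cells had exactly 5 such UMIs, and 3, 2, 2 and 7 otherwise similar cells had exactly 4 and stayed out. Of epithelial genes that the rule did not use, Krt7, a keratin of simple epithelia, stood at 547, 588, 493 and 725 CPM with vehicle, IACS-70654, anti-PD-1 and the combination. Cdh1, the gene of E-cadherin, stood at 86.4, 116, 95.9 and 136 CPM in the same order. Steroid hormone receptor transcripts were nearly absent from the vehicle tumor cells. The estrogen receptor gene Esr1 had 12 UMIs there, and the progesterone receptor gene Pgr and the luminal keratin gene Krt19 had none. The receptor gene Erbb2 lay between 18.7 and 25.0 CPM in all 4 libraries. The mesenchymal filament gene Vim stood at 135, 140, 106 and 168 CPM. Of the immune marker lists, the 12 macrophage genes summed to 414, 572, 288 and 497 CPM in the tumor cells, against 32614 to 37898 CPM in the immune cells of the same libraries. The 10 neutrophil genes summed to 213, 79.7, 203 and 134 CPM, and the 11 T and NK cell genes to 2.46, 14.2, 4.78 and 8.84 CPM. The 10 fibroblast genes summed to 38.9, 16.2, 50.9 and 85.7 CPM and the 7 endothelial genes to 46.8, 26.5, 44.7 and 20.5 CPM. The part of such RNA in the results below was not tested, except where a value is given.

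Trp53, the gene deleted in this tumor, was still counted in every library, at 62.5, 67.4, 67.4 and 63.5 CPM with vehicle, IACS-70654, anti-PD-1 and the combination. The assay reads the 3′ end of transcripts, which can lie outside the deleted part, so these counts say nothing of the deletion. The drug targets were expressed. Crebbp, which encodes CBP, stood at 126, 160, 144 and 143 CPM, and Ep300, which encodes P300, at 50.4, 66.6, 50.3 and 62.1 CPM. Neither gene passed the threshold in a comparison.

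IACS-70654 was compared with vehicle, and the combination with anti-PD-1 alone, to see what the inhibitor changed in tumor cells without and with the antibody. Interferon-response and MHC class I genes were higher with IACS-70654 in both comparisons, and a set of secreted and matrix genes was lower. These comparisons share no library, so the second is a separate reading of the same drug contrast. Against vehicle, 574 of 6103 genes were higher (9.41%) and 371 were lower (6.08%). Against anti-PD-1, the combination had 486 genes higher (7.96%) and 458 lower (7.5%). The split moved with the scaling, since trimmed mean (TMM) factors gave 388 genes higher and 515 lower against vehicle, so that 43% and not 60.7% of the genes past the threshold were higher. Of the genes higher with IACS-70654 against vehicle, 97.2% had a positive ratio in the other comparison and 56.1% were also past 0.5 there. Of the genes lower, 97.8% had a negative ratio in the other comparison and 77.4% were also past 0.5. In total 322 genes (5.28%) were higher in both comparisons and 287 (4.7%) were lower in both. Over all 6103 genes the ratios of both comparisons had a Pearson r of 0.879 and a Spearman rho of 0.763, which describes genes of the same 4 libraries and not replicates.

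**Figure D1:**
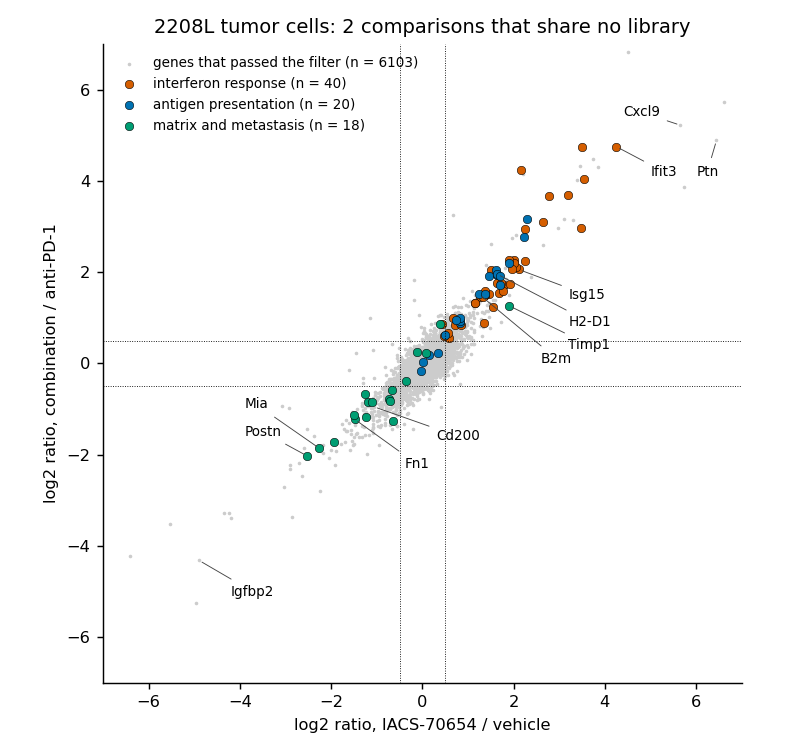
Log2 ratio of CPM of the summed tumor cells for IACS-70654 over vehicle (horizontal axis) and for the combination over anti-PD-1 (vertical axis), 1 point per gene, for 6103 genes, with dotted lines at log2 ratios of 0.5 in either direction. Past 0.5 on both axes lie 38 of 40 interferon-response genes, 15 of 20 antigen-presentation genes and the matrix gene Timp1 (5.28% of all genes). Past -0.5 on both lie 13 of 18 matrix and metastasis genes (4.7% of all genes). Of the 40 and the 20, 18 and 5 passed the filter only through the libraries with the inhibitor. Without those the counts are 20 of 22 and 10 of 15.

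Interferon-response genes differed in 1 direction. All 49 genes of the list that the files hold had a higher CPM with IACS-70654 in both comparisons, while 8020 of 20978 genes with any UMI did so. Of 40 members that passed the filter, 38 were past 0.5 in both comparisons, but 18 of these 40 passed only because the libraries with IACS-70654 were high. Filtering on the vehicle and anti-PD-1 libraries alone left 22 members, of which 20 (90.9%) were higher in both comparisons, against 3.84% of the 5971 genes that this filter left. Isg15, a ubiquitin-like protein attached to other proteins in the antiviral response, stood at 80.8 CPM with vehicle, 349 with IACS-70654, 90.9 with anti-PD-1 and 378 with the combination. Its log2 ratio was 2.11 (95% interval 1.97 to 2.25) against vehicle and 2.06 (1.95 to 2.17) against anti-PD-1. Bst2, which tethers budding virus to the cell surface, had 191, 590, 199 and 679 CPM, with log2 ratios of 1.63 (1.53 to 1.72) and 1.77 (1.69 to 1.85). Both libraries with the inhibitor lay above both libraries without it for Isg15 and Bst2. How many of all genes do so was not counted, so this is a description only.

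The genes named next were nearly silent without the inhibitor and passed the filter only through the libraries with it. Their large ratios thus follow from how they were chosen and are a description only. Ifit3, an antiviral gene that shares reads with the near-identical Ifit3b and is uncertain for that reason, had 3.17 CPM with vehicle, 60.4 with IACS-70654, 3.48 with anti-PD-1 and 93.7 with the combination. Ifit2, of the same family, had 3.70, 41.8, 2.58 and 68.7 CPM. Cmpk2, a mitochondrial nucleotide kinase induced by interferon, had 3.35, 38.9, 3.74 and 62.0 CPM. Usp18, which removes Isg15 from proteins and dampens interferon receptor signaling, had 5.63, 62.3, 9.55 and 74.6 CPM, and the negative regulator Trim30a had 4.75, 43.3, 4.13 and 53.4 CPM. Among all genes, Gbp4, a guanylate-binding protein gene, reached log2 ratios of 4.50 (3.77 to 5.35) and 6.83 (5.60 to 8.45), from 2.64 and 0.645 CPM without the inhibitor to 59.9 and 73.2 CPM with it. The DNA sensor family members Ifi202b and Mndal had ratios of 3.86 and 4.30, and of 3.73 and 4.47. AA467197, whose ratios were 6.61 (5.06 to 8.89) and 5.74 (4.75 to 6.95), rested on 3 and 8 UMIs without the inhibitor and on 543 and 890 with it. With IACS-70654, Ifit2 was seen in 60, Gbp4 in 66 and AA467197 in 47 of 691 tumor cells. With the combination they were seen in 136, 128 and 95 of 1077 tumor cells.

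Counts of genes upstream of this response past the threshold were too small to set them apart from other genes. Of the 13 members of the list of interferon receptors, kinases and regulators that passed the filter, 1 was higher and 1 was lower in both comparisons. Of all genes, 5.28% were higher and 4.7% were lower in both. Under the filter on the libraries without the inhibitor, none of 12 was higher and 1 was lower (8.33%), where 3.84% of all genes were higher and 5.78% were lower. Adar, an RNA-editing enzyme that interferon induces, was the higher member, at 10.035, 27.65, 12.8 and 31.8 CPM, with log2 ratios of 1.46 (1.05 to 1.90) and 1.32 (1.00 to 1.64), and it passed the filter only through the libraries with the inhibitor. Ifngr2, a chain of the interferon gamma receptor, was the lower member, at 93.5, 57.4, 93.3 and 59.0 CPM, with log2 ratios of -0.70 (-0.87 to -0.53) and -0.66 (-0.80 to -0.52). The transcription factor gene Irf1 had 85.9, 112, 83.0 and 132 CPM, with ratios of 0.39 (0.23 to 0.54) and 0.67 (0.54 to 0.80). The receptor gene Ifnar1 stood at 20.4, 20.6, 19.7 and 19.7 CPM, and the kinase gene Jak1 at 98.9, 99.9, 95.6 and 93.3 CPM. From other lists, Socs3, a feedback inhibitor of cytokine signaling, was higher in both, at 94.9, 170, 81.6 and 161 CPM. The transcription factor gene Irf7, which is itself an interferon target, was higher, at 47.9, 188, 54.5 and 229 CPM.

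Transcripts of the interferons themselves were rare in tumor cells. Of 21 interferon genes in the files, 15 had no UMI in any kept cell of the 4 libraries. These genes were looked up after the values of the list above were seen. Ifnb1, which encodes interferon beta, had 0, 0, 0 and 81 UMIs in the tumor cells with vehicle, IACS-70654, anti-PD-1 and the combination, and all 81 came from 1 cell. That cell held 4.79% of its own UMIs in interferon-response genes, against a median of 0.408% over the tumor cells of its library. Over all kept cells Ifnb1 had 0, 9, 3 and 81 UMIs. Ifng, the gene of interferon gamma, which T and NK cells make, had 0, 7, 1 and 5 UMIs in tumor cells. The interferon genes Ifnl2 and Ifnl3 had 0, 5, 0 and 2 UMIs and 0, 10, 0 and 6 UMIs in tumor cells. Where either gene was found, its UMIs came from 1 tumor cell of the library.

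Promoters of the interferon-response genes often held the letters that interferon-activated factors read. The core of the interferon-stimulated response element, spelled GAAA, any 2 bases and GAAA, was searched on both strands in the 250 bases upstream of each gene's start in RefSeq (GRCm38.p6, the mm10 build). It was found for 17 of 38 list members with a promoter sequence (44.7%) and for 936 of 27025 promoters in all (3.46%). The antigen-presentation list had 3 of 21 (14.3%). Genes higher in both comparisons had 33 of 257 (12.8%), genes lower in both had 9 of 225 (4%), and 16 of 214 higher genes on neither list had it (7.48%). Among genes described here, Ifit2, Cmpk2, Irf7, H2-D1, H2-K1, H2-Q4, Tap1, Tapbp, Psmb8 and Psmb9 had no match. Usp18 and Tap2 had no promoter sequence, and the match of Rsad2 is not shown. The stretches below belong to some of the described genes that had a match. They are written 5′ to 3′ on the strand of the gene, and capitals mark the motif (overlapping matches run together), which reads TTTC, any 2 bases and TTTC where it lies on the other strand. A match is a description of letters, and binding was not measured.
Isg15 (chr4:156200860-156200911, minus strand): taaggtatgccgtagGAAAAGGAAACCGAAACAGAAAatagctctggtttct
Bst2 (chr8:71537572-71537617, minus strand): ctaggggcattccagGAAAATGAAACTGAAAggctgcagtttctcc
Ifit3 (chr19:34583358-34583431, plus strand): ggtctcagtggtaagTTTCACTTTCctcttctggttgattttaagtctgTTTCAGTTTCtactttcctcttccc
Trim30a (chr7:104465205-104465244, minus strand): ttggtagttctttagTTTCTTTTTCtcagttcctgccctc
H2-T22 (chr17:36042909-36042948, minus strand): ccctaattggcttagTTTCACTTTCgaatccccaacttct
B2m (chr2:122147533-122147572, plus strand): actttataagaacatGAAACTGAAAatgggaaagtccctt

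MHC class I genes were higher with IACS-70654 in both comparisons. H2-D1, a classical class I heavy chain, stood at 722 CPM with vehicle, 2245 with IACS-70654, 692 with anti-PD-1 and 2688.5 with the combination, and its log2 ratios were 1.64 (1.59 to 1.68) and 1.96 (1.92 to 2.00). H2-K1, another classical heavy chain, had 317, 879, 291 and 1096 CPM, with ratios of 1.47 (1.40 to 1.54) and 1.91 (1.85 to 1.98). B2m, the light chain that every class I molecule needs to reach the surface, had 770, 1820, 739 and 2114 CPM, with ratios of 1.24 (1.19 to 1.29) and 1.52 (1.48 to 1.56). For all 3 genes both libraries with the inhibitor lay above both without it. The share of all genes that do so is not given here, so this is a description only. The nonclassical genes H2-Q4 and H2-T22 had ratios of 1.70 and 1.92, and of 1.89 and 2.20. H2-Q4, H2-Q6 and H2-Q7 are near-identical copies whose reads cannot be divided with certainty.

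The peptide supply genes moved with the heavy chains. Psmb8, a subunit of the immunoproteasome, had 201.2, 518, 200.3 and 579 CPM, and its partner Psmb9 had 33.5, 109, 38.5 and 127 CPM. The peptide transporter genes Tap1 and Tap2 had ratios of 1.62 and 2.04, and of 1.64 and 1.93. Tapbp, which holds the transporter to the class I molecule, had smaller ratios of 0.82 and 0.99. Of the 24 genes of this list, 23 were higher and 1 was lower in both comparisons. Of 20978 genes with any UMI, 8020 were higher and 4553 were lower. Of 15 list members that passed the filter on the libraries without the inhibitor, 10 were past 0.5 in both (66.7%). Under that filter 3.84% of all genes were, and the 15 members had medians of 0.82 and 0.95 on the log2 scale.

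**Figure D2:**
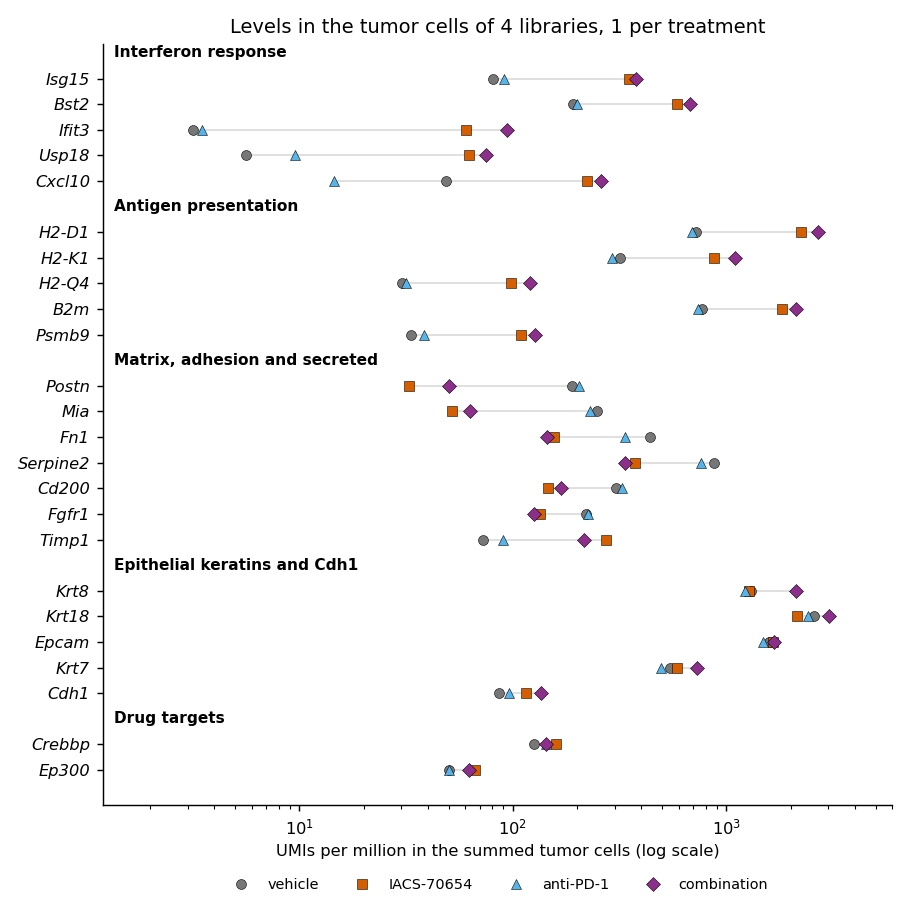
CPM of named genes in the summed tumor cells on a log axis, with 1 symbol per library (vehicle, IACS-70654, anti-PD-1, combination) and a line over the range of the 4 values. In the interferon-response and antigen-presentation groups the IACS-70654 and combination symbols lie to the right of the vehicle and anti-PD-1 symbols, and in the matrix group they lie to the left except for Timp1.

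The chemokine genes Cxcl9 and Cxcl10 were carried by few cells. Cxcl9 and Cxcl10 encode interferon-induced chemokines that attract T cells. Cxcl9 had 1.58, 79.8, 1.55 and 57.7 CPM with vehicle, IACS-70654, anti-PD-1 and the combination, in 3, 36, 8 and 95 cells. Cxcl10 had 48.4, 224, 14.6 and 258 CPM, and 1 vehicle cell held 63.6% of its vehicle UMIs. After every cell was thinned to 5000 UMIs, Cxcl10 was seen in 3.52%, 9.45%, 3.36% and 11.2% of tumor cells, and in 11.2%, 14%, 16.8% and 14.3% of immune cells thinned likewise, so its share in tumor cells was at or below that in immune cells. The neutrophil growth factor gene Csf3 lay just under the filter and had 4.23, 37.2, 2.97 and 35.4 CPM, in 9, 55, 9 and 109 cells. Its share after thinning was 0.88%, 4.95%, 0.897% and 5.23% in tumor cells and at most 0.763% in immune cells. Cxcl1, which draws neutrophils, changed less, at 79.8, 94.5, 70.1 and 97.8 CPM. Csf1, a macrophage growth factor gene, was higher in both comparisons, at 12.5, 28.5, 11.6 and 31.9 CPM. Cxcl9 and Csf1 passed the filter only through the libraries with the inhibitor.

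Genes of immune checkpoints moved in both directions. Cd200, whose product signals to an inhibitory receptor on myeloid cells, had 306, 146, 325 and 168 CPM, with log2 ratios of -1.06 (-1.16 to -0.96) and -0.95 (-1.03 to -0.87). Nt5e, the ectoenzyme CD73 that makes adenosine, had 29.9, 12.0, 35.5 and 11.6 CPM. Cd200 and Nt5e were lower in each library with the inhibitor than in each library without it. This is a description only, since the share of all genes that do so was not counted. Lgals9, the gene of galectin 9, was higher, at 52.1, 123, 50.1 and 137 CPM. Cd274, which encodes the PD-1 ligand PD-L1, did not pass the filter and had 7.04, 16.8, 6.97 and 31.5 CPM. The transcription factor gene Cebpb, at 2012, 1495, 1778 and 1449 CPM, stayed within the threshold with ratios of -0.43 (-0.46 to -0.39) and -0.30 (-0.33 to -0.26).

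Most matrix, adhesion and secreted genes were lower with IACS-70654. Of 28 list members in the files, 17 were lower and 4 were higher in both comparisons. Of 20978 genes with any UMI, 4553 were lower and 8020 were higher. Of 18 list members that passed the filter on the libraries without the inhibitor, 13 were past -0.5 in both (72.2%), against 5.78% of all genes. The study had named 6 of the members (Fn1, Hspb1, Postn, Mia, Fgfr1 and Serpine2) for these cells, so the count is not independent evidence of direction. Postn, a matrix protein of metastatic niches, had 190 CPM with vehicle, 32.8 with IACS-70654, 203 with anti-PD-1 and 50.0 with the combination, and its log2 ratios were -2.53 (-2.71 to -2.36) and -2.02 (-2.15 to -1.90). Mia, a secreted protein first described in melanoma, had 249, 52.1, 230 and 63.4 CPM. Fn1, the gene of fibronectin, had 438, 157, 336 and 144 CPM, with ratios of -1.48 (-1.57 to -1.39) and -1.23 (-1.31 to -1.14). The protease inhibitor gene Serpine2 had 880, 373, 763 and 337 CPM, the small heat shock protein gene Hspb1 had 543, 227, 396 and 249 CPM, and the growth factor receptor gene Fgfr1 had 220, 135, 224 and 126 CPM. With anti-PD-1 against vehicle the ratios of these 6 genes ran from -0.45 for Hspb1 to 0.10 for Postn, all within the threshold.

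Other members of the list were lower too, while some were higher. The collagen gene Col9a1 had 210, 54.9, 212 and 63.7 CPM, and the glycoprotein gene Tnc had 92.8, 32.9, 88.9 and 40.8 CPM. Timp1, an inhibitor of matrix metalloproteinases, was the 1 member of the 18 past 0.5 in both, at 72.7, 273, 89.6 and 214 CPM. Spp1, which encodes osteopontin, was the most abundant of the list, at 23541, 10876, 20619 and 11464 CPM, with log2 ratios of -1.11 (-1.13 to -1.10) and -0.85 (-0.86 to -0.84). It supplied 84.6% to 86.3% of the list's UMIs in the 4 libraries, so a sum over the list is mostly Spp1. Sparc had 64.4, 7.60, 60.5 and 31.9 CPM, and a single cell held 20.2%, 5%, 33.3% and 24.2% of its UMIs.

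The genes that were lowest with IACS-70654 belonged to several families. Igfbp2, a binding protein of insulin-like growth factors, had 153, 5.13, 118 and 5.93 CPM, with log2 ratios of -4.90 (-5.32 to -4.50) and -4.32 (-4.63 to -4.01). Fgg, the gamma chain of fibrinogen, had 111, 5.89, 117 and 12.1 CPM, and the calcium-binding protein gene Tesc had 127, 6.94, 132 and 12.7 CPM. Lmcd1, a LIM domain protein gene, had 86.8, 4.28, 112 and 11.5 CPM. In thinned cells Igfbp2 was seen in 25.2% and 22.9% of tumor cells with vehicle and anti-PD-1 and in 0.90% and 1.28% with IACS-70654 and the combination, and at most 0.588% of immune cells had it. Fgg was seen in 23.2% and 24.0% against 1.80% and 2.67%. The low group also held Krt15, a basal keratin gene, at 74.1, 10.3, 84.7 and 8.16 CPM, and the extracellular genes Sparcl1, Adamts18 and Emid1. Mgp, with ratios of -5.53 and -3.52, rested on 1 cell for 62.5% of its vehicle UMIs and 93.4% of its anti-PD-1 UMIs.

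Luminal and basal genes took no common direction over their whole lists. Of 31 luminal list members in the files, 15 were higher and 10 were lower in both comparisons, and of 21 basal members 7 were higher and 6 were lower. Of 20978 genes with any UMI, 8020 were higher and 4553 were lower in both, so these counts set the lists little apart. Under the filter on the libraries without the inhibitor, 1 of 20 luminal list members was past 0.5 (5%) and 5 were past -0.5 in both comparisons (25%), where 3.84% of all genes were higher and 5.78% were lower. The claudin gene Cldn4 had 29.8, 65.1, 33.8 and 78.5 CPM, and Ovol1, a repressor of mesenchymal genes in epithelia, had 12.1, 31.7, 9.68 and 43.4 CPM and passed the filter only through the libraries with the inhibitor. The milk protein gene Csn3 was lower, at 115, 57.1, 137 and 81.2 CPM, and so was Wfdc18, a whey acidic protein relative, at 8264, 4607, 8094 and 4654 CPM. Of 6 basal list members under the same filter, none was past 0.5 and 3 were past -0.5 in both (50%), among them the integrin gene Itga6 at 184, 112, 204 and 118 CPM. Krt17, which passed only through the libraries with the inhibitor, had uneven ratios of 0.68 and 3.26, and thinning the cells turned the first of them to -0.016. Of 8 mesenchymal list members under that filter, 2 were higher and 2 were lower in both (25% each). The higher members were Lgals1, the gene of galectin-1, with ratios of 0.82 and 0.81, and Twist1, a transcription factor gene known for mesenchymal programs, with ratios of 0.69 and 0.52. Zeb2, another such factor, had ratios of 1.46 and 1.02 and passed the filter only through the libraries with the inhibitor. Tgfb2 was lower, with ratios of -0.93 and -1.38.

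Metabolic genes were lower in part. Under the filter on the libraries without the inhibitor, none of 20 glycolysis and hypoxia genes was higher and 5 were lower in both comparisons (25%), against 3.84% higher and 5.78% lower over all genes. Aldoc, an aldolase, had 194, 51.9, 179 and 47.5 CPM, with ratios of -1.90 (-2.05 to -1.75) and -1.92 (-2.05 to -1.79), and the hypoxia-induced gene Bnip3 had 71.8, 42.0, 72 and 35.7 CPM. Of 12 sterol and lipid genes, 2 were lower in both (16.7%), namely the desaturase gene Scd1, at 252, 89.3, 290 and 95.2 CPM, and the lipid transcription factor gene Srebf1, at 43.8, 18.0, 42.7 and 19.2 CPM. Phgdh, the first enzyme of serine synthesis, was higher, at 7.75, 28.8, 11.7 and 33.4 CPM, but passed the filter only through the libraries with the inhibitor. Of 10 acute phase and NF-kB genes, 1 was higher (10%) and none was lower in both. Of 19 immediate early genes, none was higher and 2 were lower (10.5%). Ier3 stood at 2884, 1393, 2515 and 1619 CPM. No gene of the 19 chromatin regulators was past the threshold in both comparisons.

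Of the cell cycle lists, no member of the S phase list (13 passed) or of the G2/M list (17 passed) was past the threshold in both comparisons, where only 5.28% of all genes were higher and 4.7% lower, so a count of 0 sets these lists little apart. Under the filter on the libraries without the inhibitor, the medians of 10 S phase and 16 G2/M members were 0.11 and 0.03 against vehicle and 0.29 and 0.23 against anti-PD-1, where the medians of all genes were 0.07 and 0.01. With the combination against anti-PD-1, 3 of these 16 G2/M members were past 0.5 (18.8%, against 6.18% of all genes), namely Ube2c, Rangap1 and Smc4, and none was lower. Top2a and Birc5 were past it too but passed the filter only through the libraries with the inhibitor. In G1 cells alone the ratios of Smc4, Top2a and Birc5 turned negative, but G1 cells were picked by scores of these same lists. Mki67, a marker of cycling cells, had 17.8, 20.4, 14.5 and 24.7 CPM, and Top2a, a topoisomerase of dividing cells, had 20.6, 18.1, 12.6 and 33.4 CPM. After thinning, 30.5% of tumor cells were scored as S phase with vehicle (95% exact binomial interval 25.7 to 35.7), 29.7% with IACS-70654 (26.2 to 33.3), 27.8% with anti-PD-1 (23.7 to 32.2) and 31.6% with the combination (28.7 to 34.6). The share scored as G2/M was 14.1%, 15.4%, 15% and 15.7%. These intervals cover the counting of cells in 1 library each and cannot decide whether treatments differ, and phase calls alone do not show cycling. Of 11 members of the list of G1 regulators, 2 were higher in both comparisons (18.2%, against 3.84% of all genes under that filter) and none was lower. The first, the cell cycle inhibitor gene Cdkn1a, a p53 target in WT cells, stood at 24.5, 40.1, 19.9 and 42.6 CPM, and the second, Mxd1, an antagonist of MYC, had ratios of 0.61 and 0.65. Cdkn2a, which is often high where p53 is lost, had 192, 292, 189 and 266 CPM, with ratios of 0.61 and 0.49.

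The change of the interferon and class I genes was spread over many cells, with a long upper tail. In tumor cells thinned to 5000 UMIs (341, 667, 446 and 1013 cells), the interferon-response list had a median of 8 UMIs per cell with vehicle, 17 with IACS-70654, 9 with anti-PD-1 and 21 with the combination. The range from the 10th to the 90th percentile was 2 to 28 with vehicle and 7 to 67.8 with the combination. The share of cells above the vehicle library's 95th percentile was 15% with IACS-70654, 3.81% with anti-PD-1 and 20.4% with the combination. For the antigen-presentation list the medians were 16, 32, 16 and 40 UMIs. Immune cells of the same libraries, thinned likewise, had higher medians of 48, 68, 48 and 71 UMIs. Isg15 was seen in 19.6%, 47.7%, 19.5% and 52.5% of tumor cells, against 42.4%, 49.2%, 38.5% and 54.9% of immune cells, which is a wider difference between libraries in tumor cells than in immune cells, not tested. The matrix list had medians of 132, 57, 108 and 57 UMIs per tumor cell, mostly from Spp1, against 12 to 16 in immune cells. Postn was seen in 47.5%, 12.1%, 43.0% and 18.6% of tumor cells and in at most 1.18% of immune cells. Cd200 was seen in 70.7%, 44.2%, 70.2% and 47.8% of tumor cells and in at most 3.05% of immune cells.

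**Figure D3:**
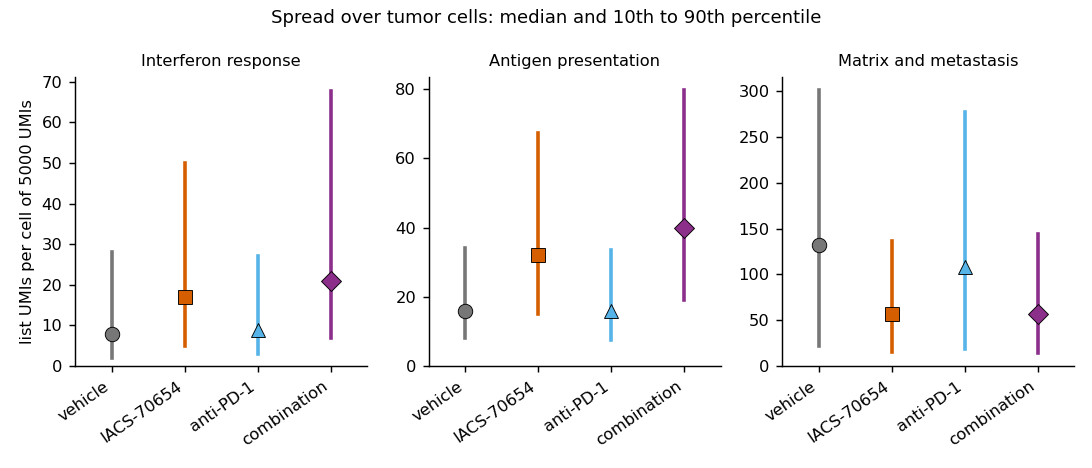
UMIs of 3 gene lists per tumor cell thinned to 5000 UMIs, by library, with symbols at the median and lines from the 10th to the 90th percentile over cells. The interferon-response median was 8 with vehicle and 17 with IACS-70654, and the matrix median, mostly Spp1, was 132 with vehicle and 57 with IACS-70654.

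Anti-PD-1 was compared with vehicle, and the combination with IACS-70654 alone, to see what the antibody changed in tumor cells without and with the inhibitor. Far fewer genes passed the threshold. Against vehicle, 79 genes were higher (1.29%) and 20 were lower (0.328%), and TMM factors gave 47 and 26, which moved the share of higher genes from 79.8% to 64.4%. Against IACS-70654, the combination had 47 genes higher (0.77%) and 7 lower (0.115%). Only 2 genes, Cped1 and Ly6a, were higher in both (0.0328%), and none was lower in both. Ly6a, the stem cell antigen gene Sca-1, stood at 1.76, 94.0, 9.16 and 133 CPM and passed the filter only through the libraries with the inhibitor. It had 10 UMIs with vehicle and 71 with anti-PD-1, and 1 cell held 49.3% of the 71. With IACS-70654, 1 cell held 46.7% of its UMIs. Cped1 had 18.5, 37.3, 26.3 and 56.4 CPM, and 1 combination cell held 36.8% of its UMIs there. Emp1 and Birc5, the gene of survivin, were next, with ratios of 0.38 and 0.45 for Emp1 and of 0.38 and 0.56 for Birc5. Among the lowest were the macrophage genes C1qc (-0.47 and -0.36) and Lyz2 (-0.56 and -0.31), and the macrophage marker list of the tumor cells was also lower, at 288 against 414 CPM and at 497 against 572 CPM.

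The interferon-response and class I lists differed little with anti-PD-1 alone. Their medians against vehicle were 0.12 and -0.01, while the median of all genes was 0.03. With the combination against IACS-70654 the medians were 0.25 and 0.22, and the median of all genes was -0.01. Under the filter on the libraries without the inhibitor, 20 of 22 interferon-response members had a positive ratio there, as did 2852 of all 5971 genes. Past the threshold were 2 of the 22 (9.09%), namely Rsad2 and Iigp1, where 0.703% of all genes were. The median of the 22 members was 0.21. Of members that passed the filter only through the libraries with the inhibitor, Ifit2 had a ratio of 0.72 (0.56 to 0.88), Cmpk2 of 0.67 (0.51 to 0.84) and Ifit3 of 0.63 (0.50 to 0.77). H2-D1 had a ratio of 0.26 (0.24 to 0.28), B2m of 0.22 (0.19 to 0.24) and Isg15 of 0.12 (0.06 to 0.18). The spread of ratios over all genes was narrow, with an SD of 0.19 for anti-PD-1 against vehicle and 0.15 for the combination against IACS-70654, against 0.51 and 0.52 for the comparisons of the inhibitor. The median width of the counting interval was 0.44 and 0.30, so for most genes a change of this size was not detectable at this depth.

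Tumor cells also differed from one another within each library. Over 6110 genes in thinned cells the median ratio of variance to mean was 1.10, where Poisson counts give 1, and 423 genes exceeded 2. The highest medians over the libraries were those of Malat1 (83.1), Spp1 (74.5), Apoe (59.0), Ptn (52.4), Gm42418 (37.6), Cxcl10 (35.5), Krt19 (32.5), Wfdc18 (28.9), Lcn2 (28.7) and S100a6 (28.6). Ptn stood at 0.997 with vehicle and 0.998 with anti-PD-1, against 104 with IACS-70654 and 114 with the combination, and Krt19 had no UMI with vehicle and stood at 1 with anti-PD-1, so these 2 genes varied in the libraries with the inhibitor. Apoe stood at 10.0 with vehicle, 127 with IACS-70654, 59.9 with anti-PD-1 and 58.2 with the combination. With IACS-70654, 10 cells held 53.3% of its UMIs, and with anti-PD-1 1 cell held 16.2%. Gm42418 overlaps ribosomal RNA and is uncertain. Lcn2 and Trf, which encode the iron-binding proteins lipocalin 2 and transferrin, varied together, with Pearson correlations over thinned cells of 0.68, 0.68, 0.65 and 0.74 in the 4 libraries. Cxcl10 and Rsad2, an antiviral gene, had correlations of 0.62, 0.76, 0.65 and 0.70. Spp1 and S100a6 had 0.33 and 0.39 with vehicle and anti-PD-1 but -0.15 and -0.22 with IACS-70654 and the combination. These correlations are over cells that share a library, and they are a description.

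A run of neighboring genes on chromosome 6 set the tumor cells apart from immune cells. The run was noticed when the most abundant transcripts were listed, since Capza2, at 10930, 12567, 10458 and 12600 CPM, and Tes, at 6933, 8290, 7117 and 8498 CPM, were among them, and it was bounded after its values were seen. It spans 22 genes from Gm15473 to Wasl, 19 of them protein-coding, at chr6:17058806-24665009 (mm10), a length of 7.61 Mb. All 22 were higher in tumor cells than in immune cells in each of the 4 libraries, and 21 had a mean log2 ratio over 2, as did 9.71% of 7288 genes. The median of all these genes was 0.21, and how many were higher in each library was not counted. Since the ends were set on these values, the counts within the run are a description only. Met, the receptor of hepatocyte growth factor, had a mean of 2127 CPM in tumor cells and 23.3 CPM in immune cells. Cftr, a chloride channel gene, had 575 and 4.61 CPM, Wasl, an actin regulator, had 2302 and 47.3 CPM, and Lsm8, an RNA-binding protein gene that most cells use, had 3144 and 78.6 CPM. The 6 genes before the run had mean ratios from -3.05 to 0.80 and the 6 after it from 0.26 to 1.58. Over 7008 windows of 15 neighboring genes in the genome, the highest median was 3.96, inside the run, and the highest elsewhere was 2.37. DNA copy number was not measured.

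**Figure D4:**
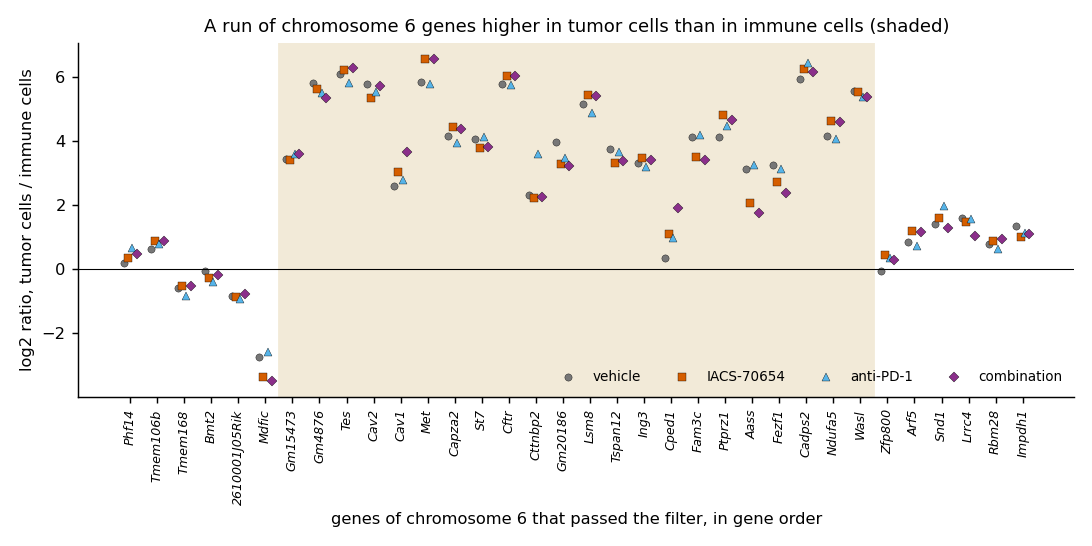
Log2 ratio of CPM in tumor cells over immune cells (5 CPM added to both) for genes of chromosome 6 in gene order, with 1 symbol per library and the run shaded. All 22 shaded genes lie above 0 in all 4 libraries, and the 6 genes on either side reach at most 1.58 in the mean over libraries. The ends of the run were set after these values were seen.

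The run's median share of a tumor cell's UMIs was 3.11% with vehicle, 3.53% with IACS-70654, 3.12% with anti-PD-1 and 3.52% with the combination, against 0.112% to 0.128% in immune cells. Its 22 genes had a median log2 ratio of 0.15 with IACS-70654 against vehicle and of 0.11 with the combination against anti-PD-1. Single genes varied, from -1.22 to 1.01 in the first comparison, with 3 higher and 2 lower past 0.5 (9.41% and 6.08% of all genes were), and from -1.98 to 1.10 in the second, with 3 higher and 6 lower (7.96% and 7.5%). Met itself was higher with the inhibitor, at 1529, 2502, 1797 and 2678 CPM, with ratios of 0.71 (0.67 to 0.75) and 0.58 (0.55 to 0.60).

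A few cells that the rule took as tumor cells lacked the high run. In 23 of 2585 cells (0.890%), 1 with vehicle, 9 with IACS-70654, 2 with anti-PD-1 and 11 with the combination, the run made up under 0.5% of UMIs. Those with IACS-70654 and the combination carried nearly all of the Ptn UMIs (962 of 969 and 1347 of 1359), of the Krt19 UMIs (252 of 254 and 414 of 418) and of the Pgr UMIs (22 of 25 and 14 of 16). They also carried Ly6d, with 102 and 165 UMIs. Prlr, the prolactin receptor gene, was also higher in them, at 2913 CPM over the 23 cells against 91.4 CPM in the remaining tumor cells. They held 198 of 1168 and 247 of 1656 of its UMIs with IACS-70654 and the combination, so most lay in the other tumor cells. Krt19 and Pgr are genes of hormone-responsive luminal cells. Esr1 was higher in the 23 cells too, at 360 against 2.53 CPM in the remaining tumor cells. Gata3 had 340 against 4.13 CPM and Foxa1 had 288 against 3.03 CPM. None of the UMIs of these 3 genes in the 23 cells came from vehicle or anti-PD-1. The luminal list as a whole went the other way, and immune marker genes were higher. Over the 23 cells the 31 luminal list genes summed to 12995 CPM, against 22970 CPM in the remaining tumor cells. Few genes weigh most in that sum. In all tumor cells with IACS-70654 it was 21728 CPM, with 9374 from Lcn2, 4607 from Wfdc18 and 4246 from Trf. The 12 macrophage genes summed to 1997 against 458 CPM and the 10 neutrophil genes to 733 against 142 CPM. These sums pool the cells of all 4 libraries. The 23 cells so pooled are mixed and were given no identity. The 3 such cells with vehicle and anti-PD-1 carried the MHC class II genes Cd74 (199 and 365 UMIs) and H2-Aa. Those with IACS-70654 and the combination had 10 and 27 UMIs of Cd74. Without the 23 cells the log2 ratio of Ptn went from 6.45 to -0.66 against vehicle and from 4.89 to -1.93 against anti-PD-1, and that of Esr1 went from 1.28 to 0.18 and from 0.48 to -0.22. The counts of genes past the threshold with IACS-70654 hardly moved without these cells, with 578 higher and 376 lower against vehicle and 485 and 458 against anti-PD-1.

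Cells with many Krt14 transcripts appeared in the libraries with the inhibitor. Cells that met every other condition but had at least 20 UMIs of Krt14 numbered 0 with vehicle, 30 with IACS-70654, 1 with anti-PD-1 and 45 with the combination. As a share of these and the tumor cells they were 4.16% with IACS-70654 (95% exact binomial interval 2.83 to 5.89) and 4.01% with the combination (2.94 to 5.33), against 0.216% with anti-PD-1 (0.00548 to 1.2) and 0 of 356 with vehicle, where the exact upper limit was 1.03% and 3 counts would be 0.843%. Just below the threshold, with 10 to 19 UMIs of Krt14, were 0, 11, 2 and 12 tumor cells. The run on chromosome 6 had a median share of 3.23% in the Krt14-high cells with IACS-70654 and of 3.51% with the combination, near that of the tumor cells.

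The Krt14-high cells were compared with the tumor cells of the same library, where both were found in number. With IACS-70654 and the combination, edgeR on summed counts called 657 genes higher (5.48% of 11989) and 473 lower (3.95%) in the Krt14-high cells. The cells were split on Krt14 itself and only 2 libraries entered, so the counts are a description and support nothing. Keratins of stressed and stratified epithelium were far higher, as Krt6a went from 14.3 to 4198 CPM with IACS-70654 and from 18.2 to 4746 CPM with the combination, and Krt16 from 6.94 to 2299 and from 18.9 to 2510 CPM. Krt6a and Krt6b share near-identical sequence and are uncertain as single genes. The 8 highest by size were Cnfn, Cryba4, Krt6b, Nccrp1, Klk14, Clic3, Mal and Dsg1b, among them the cornified envelope gene Cnfn and the desmosomal cadherin gene Dsg1b. Cnfn had 1 and 0 UMIs in the tumor cells and stood at 840 and 504 CPM in the Krt14-high cells. Luminal list genes split, with 11 of 29 higher and 6 lower. Krt7 went from 588 to 2096 and from 725 to 2059 CPM, while Lcn2 went from 9374 to 1435 and from 7896 to 3182 CPM and Csn3 from 57.1 to 3.39 and from 81.2 to 1.95 CPM. Vim was lower, from 140 to 30.5 and from 168 to 13.7 CPM. Cmpk2, Tnc, Ube2c, Krt19, Cdk1, Gpx3, Gbp6 and Gm42047 had no UMI in the Krt14-high cells of either library, whose summed UMIs were 295369 and 512005. For Krt19 and Gpx3 this contrast came mostly from the few tumor cells low in the chromosome 6 run. Those cells held 252 of 254 and 414 of 418 UMIs of Krt19 with IACS-70654 and the combination. For Gpx3 they held 256 of 279 and 231 of 312. Of the interferon-response list 1 of 49 was higher and 14 were lower, and of the G2/M list 1 of 48 was higher and 9 were lower.

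**Figure D5:**
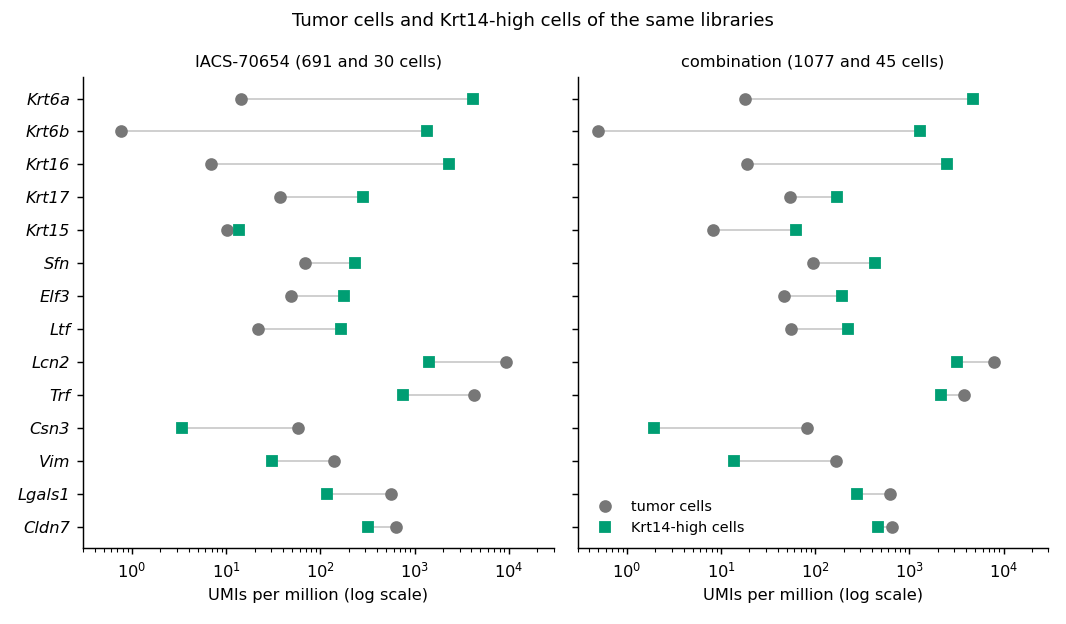
CPM on a log axis of 14 genes in tumor cells and in Krt14-high cells of the IACS-70654 library and of the combination library. Krt6a, Krt6b and Krt16 are far higher in the Krt14-high cells of both libraries, and Csn3, Vim and Lcn2 are lower.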

How the data were processed

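The authors sequenced 3′ single-cell libraries with sample tags and made the deposited UMI counts per gene and cell barcode with CellRanger (version 7.1.0 per the file headers, while the study's methods name a later release) on mm10. These counts are whole numbers without normalization. UMIs of the selected cells were summed per library. Since each treatment had 1 library, no test was run between treatments. Ratios of CPM were given with exact intervals for 2 Poisson counts, and shares with exact binomial intervals. The ratios, their intervals and the edgeR comparison were tested on simulated data. The members and the gene lists were chosen with earlier results of these data known. Genes were named by a fixed rule: those the study names for these cells, up to 5 per list and the 10 highest and lowest overall by the smaller of both ratios of IACS-70654, 5 each way for anti-PD-1, the 10 most variable genes, and the 8 strongest each way in the Krt14-high comparison, with genes that define the cell type. Irf7, Ifnar1, Jak1, the Tap genes, Tapbp, Psmb8, Cd274, Rsad2, Spp1, the genes of the chromosome 6 run and those of the cells low in it were named in addition, after their values were seen. Immune cells had over 2 UMIs of Ptprc and Csf1r and none of the 3 epithelial genes. For shares and scores per cell, each cell was thinned to 5000 UMIs, and shallower cells were left out. Krt14-high cells were compared with tumor cells by the edgeR quasi-likelihood test on summed counts, with library as a block, Benjamini-Hochberg adjustment and an adjusted p threshold of 0.01. Scrublet marked 0.0197% to 0.659% of kept cells as doublets, under 0.5% in 3 libraries, so doublets were not removed. Alternatives were TMM scaling, no filter, a log2 threshold of 1, other cell limits, thinning, per-cell means, G1 cells alone, DESeq2 (version 1.42.0) for the Krt14-high comparison and, chosen after seeing the data, leaving out cells low in the chromosome 6 run. Python 3.11.15, scanpy 1.11.5, R 4.3.3 and edgeR 4.0.16 were used. Some genes that the rule takes are not reported here.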

Additional observations from a re-analysis of the deposited data

How the results depend on the processing

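Counts of genes past the threshold with IACS-70654 stayed within 1.5 times of the values above under TMM scaling, the other cell limits, thinning, per-cell means and G1 cells alone. Without the filter they were 3452 higher and 2408 lower against vehicle, 3278 and 2976 against anti-PD-1, and 1589 and 1180 in both. At a log2 threshold of 1 they were 119 and 109, 128 and 125, and 97 and 75, and the matrix list had 6 members lower in both. The counts for anti-PD-1 moved more. Against vehicle they were 2208 and 1342 without the filter, 6 and 6 at a threshold of 1, 328 and 108 in thinned cells, 137 and 32 for per-cell means and 190 and 49 in G1 cells, and the higher genes were 47 with TMM and 37 without the upper limit on genes. The combination against IACS-70654 had 1715 and 2424 without the filter, 12 and 0 at a threshold of 1, and 78 and 33 in thinned cells, and its lower genes were 12 in cells with no UMI of Ptprc or Csf1r, 14 for per-cell means and 36 in G1 cells. Genes past the threshold in both comparisons of anti-PD-1 were 413 and 275 without the filter, 7 and 3 in thinned cells, 9 and 1 for per-cell means and 14 and 3 in G1 cells. The higher ones were 0 at a threshold of 1, and 1 with TMM, without the upper limit, without Ptprc or Csf1r UMIs and without the cells low in the chromosome 6 run. The cause of these shifts was not tested.

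Requiring no UMI of Ptprc or Csf1r gave tumor cell shares of 15.05%, 12.6%, 19.6% and 18.3% with vehicle, IACS-70654, anti-PD-1 and the combination. Without thinning the G2/M shares were 7.02%, 6.80%, 5.42% and 7.89%, and the S shares were 23.01% with IACS-70654, 22.3% with anti-PD-1 and 25.2% with the combination. Thinning to 3000 UMIs gave 19.1% in G2/M with anti-PD-1 and, in S, 34.98% (32.1 to 37.9) with the combination and 26.3% (22.3 to 30.6) with anti-PD-1, intervals that cover counting in 1 library each. DESeq2 called 330 genes higher and 159 lower in Krt14-high cells. Leaving out the cells low in the chromosome 6 run, an alternative chosen after seeing the data, turned the ratio of the combination over anti-PD-1 to -0.058 for Krt19 and for Pgr and to -1.93 for Ptn, turned Ptn to -0.66 against vehicle, and took the variance over mean of Krt19 to 1. In G1 cells the ratio of the combination over anti-PD-1 reversed for Mki67 (-0.26), Top2a (-0.38), S100a9 (0.37), C1qc (-0.049), Birc5 (-0.59) and Smc4 (-0.067). G1 cells were picked by scores of the S and G2/M lists, so that choice shapes the values of cell cycle genes there. S100a9 also reversed, to 0.11, without Ptprc or Csf1r UMIs, and Krt17 against vehicle reached -0.016 in thinned cells.

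No paired analysis was possible because each treatment had 1 library. Leaving out a library of the Krt14-high comparison could not be fitted, since only 2 libraries had at least 20 such cells. Each treatment pooled 3 mice in 1 library, so differences between mice, tumors and the handling of samples cannot be told apart from treatment. Whether the tagged samples shared a preparation is not stated in the sources used here. Cells were assigned to samples by tag, at a confidence that the study adjusted for the tumors to keep more cells. In summed tumor cells, fewer expressing cells and less RNA per cell cannot be told apart except where shares of cells are given.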

Other observations

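Macrophage and neutrophil genes in the tumor cells moved with the treatments. C1qa had 110, 145, 61.3 and 127 CPM with vehicle, IACS-70654, anti-PD-1 and the combination, with log2 ratios of 0.41 and 1.05 for the inhibitor. The neutrophil gene S100a9 had 102, 13.5, 80.9 and 41.2 CPM, with ratios of -2.91 and -0.97, and 1 cell held 32.6% of its vehicle, 38.9% of its anti-PD-1 and 16.5% of its combination UMIs. Its ratio of the combination over anti-PD-1 turned positive in G1 cells and in cells without Ptprc or Csf1r UMIs. These genes are defined by other cell types, and the source of their RNA was not tested.

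Malat1, a nuclear noncoding RNA, was the gene with the highest CPM in the libraries with the inhibitor, at 7101, 17415 and 8134 CPM with vehicle, IACS-70654 and anti-PD-1 and 16060 CPM with the combination. The whey acidic protein relative Wfdc2, named after its values were seen, was higher with the inhibitor, at 630, 1399, 532 and 1508 CPM.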
